A study of Mus musculus with 4 samples.

Results

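The white adipocytes of the skin were followed through 10 genes of the mature white fat cell, Adipoq, Lep, Plin1, Plin4, Fabp4, Cfd, Pparg, Lpl, Lipe and Cd36, which were picked by name from the 24441 rows of the deposited gene table. All 10 were found and all 10 passed the filter on low values. The skin came from C57BL/6 mice at postnatal week 8. The WT group (n = 2) was wild type, and the GSDMD KO group (n = 2) carried the GSDMD-/- genotype, a germline knockout that was bought in and had been made by injecting Cas9 mRNA and a guide RNA into fertilized eggs. Gasdermin D (GSDMD) forms pores in the plasma membrane during pyroptosis, an inflammatory form of cell death. The mice of both groups are described as female, and all received bleomycin (BLM), a cytotoxic antibiotic that makes the skin fibrotic, under the skin of the back every other day over 28 days, and skin biopsies of 1 by 0.5 cm were taken from the lesion. The knockout covered all cells of the animal and the BLM model was shared by both groups, so the comparison is one of genotypes within treated skin. Saline-treated skin was not analysed here.

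Values were fragments scaled by the length of the transcript and the depth of the library (FPKM), which allow levels of different genes to be compared per length. The 4 libraries summed to between 448544 and 462251 FPKM. Their depth, estimated from the FPKM that 1 fragment is worth in low genes, lay between 12700000 and 17500000 fragments, and 3 fragments on a transcript of 1 kb stood for 0.171 to 0.236 FPKM. This floor covers counting error only. Gsdmd itself had 14.0 and 18.2 FPKM in WT skin against 3.53 and 2.26 in KO skin. KO replicate 2 was the lowest library for 33.3% of the 13027 tested genes, and the corresponding shares of the other libraries were not counted. In KO replicate 2, 4 of 15 Y-linked genes were above 0, with 1.78 FPKM in sum, against 0 of 15 in each other library. The mice are described as female, so this library goes against that description, and which mouse it came from could not be checked further. Fold changes of the 10 genes and the medians of the main gene lists are therefore given with and without it. Where a pair of values stands for a genotype, replicate 1 comes first and replicate 2 second. Adipoq, which is made almost only by fat cells, was above the floor in all 4 libraries, with 16.9 FPKM at the least. The skin also held a large share of skeletal muscle RNA: Acta1, skeletal muscle actin, had 3728 to 7681 FPKM.

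White adipocytes store triglyceride in a single large lipid droplet and release it as fatty acids in need. PPARgamma, together with C/EBP factors, switches on their gene programme, which includes enzymes and coat proteins of the droplet, carriers of fatty acids and secreted hormones. In mouse skin these cells form a layer under the dermis, the dermal white adipose tissue, which grows and shrinks with the hair cycle and is known to be lost in BLM-treated skin.

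The promoter sequences of 4 of the genes are shown because Adipoq, Plin1 and Lep were lowest in the same library, KO replicate 2, and Pparg, the gene of the factor that drives adipocyte genes, was not. They are RefSeq windows of assembly GRCm38.p6 from 250 bases before to 50 bases after a start site, 300 bases long and printed 5′ to 3′ on the strand of the gene. The windows of Lep (chr6:29059971-29060270, plus strand), Plin1 (chr7:79732727-79733026, minus strand) and Pparg (chr6:115421816-115422115, plus strand, 1 of 3 windows of this gene) carry capitals where a C/EBP element, TTGCNNAA, was matched on either strand. In the window of Adipoq (chr16:23146286-23146585, plus strand) the capitals mark matches of the CCAAT box on either strand.
Lep: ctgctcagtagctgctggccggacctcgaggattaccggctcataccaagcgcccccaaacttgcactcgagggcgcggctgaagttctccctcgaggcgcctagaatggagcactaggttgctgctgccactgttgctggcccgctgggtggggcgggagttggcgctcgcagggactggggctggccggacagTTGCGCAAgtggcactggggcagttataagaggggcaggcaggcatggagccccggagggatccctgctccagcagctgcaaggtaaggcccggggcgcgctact
Plin1: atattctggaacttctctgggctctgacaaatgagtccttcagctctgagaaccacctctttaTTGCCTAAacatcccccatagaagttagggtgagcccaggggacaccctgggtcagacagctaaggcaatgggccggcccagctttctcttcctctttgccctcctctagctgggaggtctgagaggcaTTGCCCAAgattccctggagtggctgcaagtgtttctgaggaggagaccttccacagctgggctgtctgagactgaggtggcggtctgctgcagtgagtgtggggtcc
Pparg: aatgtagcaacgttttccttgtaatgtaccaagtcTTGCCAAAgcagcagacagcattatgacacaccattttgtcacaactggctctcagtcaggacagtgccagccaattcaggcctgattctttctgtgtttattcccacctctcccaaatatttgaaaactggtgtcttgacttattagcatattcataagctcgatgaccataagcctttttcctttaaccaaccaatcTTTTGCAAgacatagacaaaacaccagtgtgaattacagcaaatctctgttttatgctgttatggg
Adipoq: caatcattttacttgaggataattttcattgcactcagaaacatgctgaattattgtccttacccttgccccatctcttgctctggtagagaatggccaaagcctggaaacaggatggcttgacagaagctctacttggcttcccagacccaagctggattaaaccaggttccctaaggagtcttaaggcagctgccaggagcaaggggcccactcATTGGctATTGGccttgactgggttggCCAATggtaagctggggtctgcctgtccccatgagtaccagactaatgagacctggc
RefSeq windows were found for 8 of the 10 genes, 11 windows in all, and Fabp4 and Lpl had no entry. The C/EBP element was matched in 3 of the 11 windows and in 10.8% of all 32851 mouse windows. In the Lep window it stood at -55 to -48 from the start site as TTGCGCAA, in the Plin1 window at -187 to -180 as TTGCCTAA and at -58 to -51 as TTGCCCAA. The printed Pparg window held it at -215 to -208 as TTGCCAAA and, on the opposite strand, at -16 to -9, where the printed strand reads TTTTGCAA. The CCAAT box, searched as CCAAT, was matched in 5 of the 11 windows against 37.4% of all windows, and the TATA box, searched as TATAAA, in 1 of 11 against 13.6%. The DR1 element bound by PPARgamma with its partner RXR, searched as 2 direct copies of AGGNCA with 1 base between them, was matched in 0 of the 11 windows and in 0.381% of all windows. No match of one of these motifs shared a base with a match of another in the 11 windows, and a match is a description of the letters, not a bound site.

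The first question was whether white adipocyte genes differed between GSDMD KO and WT skin under BLM. All 10 had a lower mean in the KO group on the log2(FPKM + 1) scale, as had 41.4% of all tested genes, with a median log2 fold change of -1.94 against 0.11 over all tested genes. None of the 10 passed the threshold of the study, an adjusted p under 0.05 with an absolute log2 fold change above 1 in limma, and the share of all tested genes that passed it was 0%. When the p was left unadjusted and the limit on the fold change kept, 0 of the 10 were past the threshold, against 4.14% of all tested genes in the lower direction (539 genes) and 6.16% in the higher direction (802 genes). Under median-ratio scaling, which moved the median of all genes to 0.01, these numbers were 707 lower and 630 higher genes, and all 10 adipocyte genes still had a lower KO mean. Under that scaling, and under upper-quartile scaling, 1 of the 10, Plin4, was past the unadjusted threshold, against 5.44% and 5.14% of all tested genes in the lower direction. The genotypes did not overlap, with KO lower, for 3 of the 10 genes, Adipoq, Plin4 and Cd36, where 20.5% of all tested genes had this order and 35.3% had both KO values above both WT values, which 0 of the 10 had. In bulk skin RNA, fewer adipocytes and less RNA per adipocyte cannot be told apart.

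Besides the lower KO mean, most of the 10 genes had the same lowest and the same highest library. KO replicate 2 was the lowest library for 9 of them, all but Pparg, and WT replicate 2 was the highest for 9, all but Lep. Among all tested genes the corresponding shares were 33.3% and 22.3%. WT replicate 2 exceeded WT replicate 1 for all 10 genes, from 1.15 times for Lep to 5.36 times for Plin1, with a median of 2.58 times. KO replicate 1 lay close to WT replicate 1, between 0.830 times (Plin4) and 1.68 times (Lep), and was higher for 6 genes and lower for 4. KO replicate 1 exceeded KO replicate 2 by 2.28 times (Cd36) to 19.5 times (Plin1) in the 9 genes other than Pparg. At the median, the KO libraries differed from each other by 2.60 on the log2(FPKM + 1) scale and the WT libraries by 1.34, against the median log2 fold change of -1.94 between the genotypes. With 2 libraries against 2, the smallest two-sided p that exact permutation of 1 gene allows is 0.333.

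**Figure D1:**
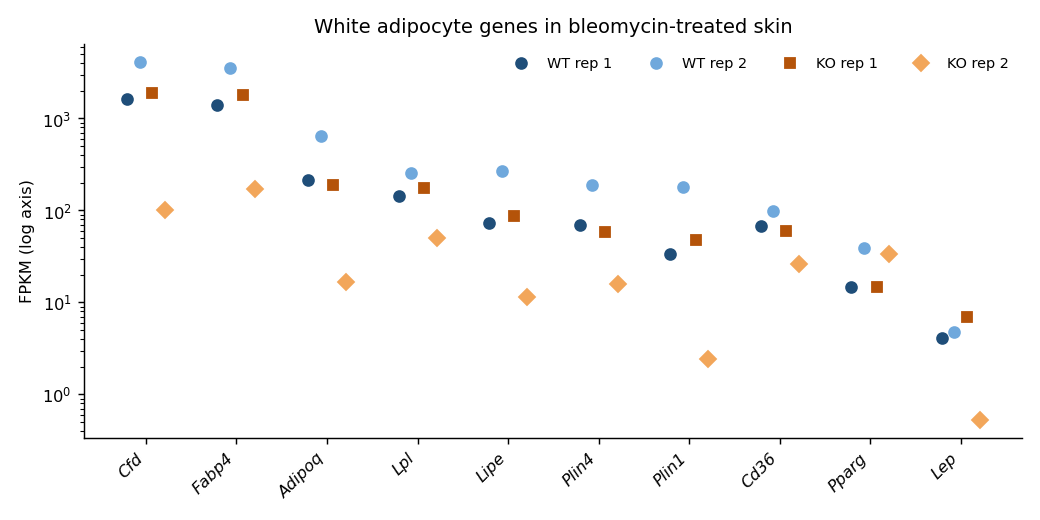
FPKM on a log axis of each of the 10 white adipocyte genes (x axis) in the 4 libraries, 1 point per library with colour and shape giving WT replicates 1 and 2 and KO replicates 1 and 2. KO replicate 2 is the lowest point of 9 genes and WT replicate 2 the highest of 9, while Pparg has 33.8 FPKM in KO replicate 2, above WT replicate 1 and KO replicate 1.

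Of the secreted proteins, Cfd (chr10:79353598-79355400 of mm9, plus strand, 5 exons), which encodes complement factor D or adipsin, was the most abundant gene of the 10 in 3 libraries. It had 1642 and 4123 FPKM in WT skin against 1874 and 102 in KO skin. KO replicate 1 lay between the WT libraries, so the groups overlapped, and KO replicate 2 was 16.1 times below WT replicate 1. The log2 fold change was -2.57 with an SE of 1.40 (adjusted p = 0.380 in limma), and leaving out KO replicate 2 gave -0.47, leaving out KO replicate 1 -4.66.

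Adipoq (chr16:23146609-23158041, plus strand, 3 exons) encodes adiponectin, the hormone that is made almost only by fat cells. Its level was 214 and 649 FPKM in WT skin against 187 and 16.9 in KO skin. The KO values both lay under the WT values, but KO replicate 1 missed WT replicate 1 only narrowly, at 0.876 times its level. The log2 fold change of -2.69 had a standard error of 1.20 (adjusted p = 0.323 by limma), and without KO replicate 2 it was -0.99.

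Lep (chr6:29010221-29023876, plus strand, 3 exons) encodes leptin, the hormone that reports fat stores to the brain, and was the lowest of the 10 genes in every library. The WT libraries had 4.14 and 4.74 FPKM, KO replicate 1 had the highest value, 6.94 FPKM, and KO replicate 2 the lowest, 0.524 FPKM. The estimated fragments behind these values were 236, 221, 310 and 21.7, so the low value of KO replicate 2 rested on few fragments. Its log2 fold change was -0.64 with an SE of 0.78 (adjusted p = 0.664 in limma), and it was 0.55 without KO replicate 2.

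Of the proteins that coat the lipid droplet, Plin1 (chr7:86866050-86877662, minus strand, 9 exons) encodes perilipin 1, which guards the droplet against lipases in the basal state. It had 33.7 and 181 FPKM in WT skin against 47.8 and 2.45 in KO skin. The groups overlapped, and the span was the widest of the 10 genes, 73.6 times between WT replicate 2 and KO replicate 2. About 59.7 fragments lay behind the lowest value. The log2 fold change was -2.61 with an SE of 1.43 (adjusted p = 0.383 in limma), against -0.70 when KO replicate 2 was left out.

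Plin4 (chr17:56240014-56249225, minus strand, 9 exons), perilipin 4, coats small nascent droplets. WT skin had 69.8 and 187 FPKM against 57.9 and 15.8 in KO skin. The groups did not overlap, and the adjusted p of 0.296 by limma was the lowest of the 10 genes (log2 fold change -1.88, standard error 0.75, and -0.97 without KO replicate 2). An exon of Hdgfrp2 on the other strand overlaps Plin4, and the sources used here do not say whether strand was used in counting, so part of these reads could belong to the neighbour.

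Fabp4 (chr3:10204343-10208576, minus strand, 4 exons) encodes the fatty acid-binding protein of fat cells, which is also made by capillary endothelium and macrophages. Its values were 1386 and 3497 FPKM in WT skin against 1779 and 171 in KO skin. As for Cfd, KO replicate 1 lay between the WT libraries, and KO replicate 2 lay below all others. The log2 fold change was -1.99 with an SE of 1.16 (adjusted p = 0.401 in limma), and it was -0.31 without KO replicate 2.

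Fabp4 and Cfd together held 83.0% and 81.9% of the summed FPKM of the 10 genes in WT replicates 1 and 2, 85.2% in KO replicate 1 and 63.4% in KO replicate 2. The 10 genes together took 0.805% and 2.01% of all FPKM in WT replicates 1 and 2, 0.956% in KO replicate 1 and 0.0954% in KO replicate 2. The share in KO replicate 1 lay within the range of the WT libraries.

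Uptake and release of fatty acids was represented by 3 genes. Cd36 (chr5:17287508-17394777, minus strand, 16 exons) encodes a fatty acid translocase of fat cells, muscle, capillaries and macrophages. It had 67.3 and 98.8 FPKM in WT skin against 59.7 and 26.2 in KO skin, so the groups did not overlap. Its log2 fold change was -1.03 with an SE of 0.46 (adjusted p = 0.324 in limma), or -0.45 without KO replicate 2, and WT replicate 2 exceeded KO replicate 2 by 3.78 times, the narrowest such gap of the 9 genes other than Pparg.

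Lpl (chr8:71404454-71430831, plus strand, 11 exons) encodes lipoprotein lipase, which frees fatty acids from circulating lipoproteins at the capillary wall and is also made by muscle. WT skin had 143 and 256 FPKM against 176 and 50.3 in KO skin. The groups overlapped, with KO replicate 1 between the WT libraries (log2 fold change -1.01 ± 0.66 SE, adjusted p = 0.439 in limma), and without KO replicate 2 the log2 fold change was -0.12.

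Lipe (chr7:26164546-26181006, minus strand, 10 exons) encodes hormone-sensitive lipase, which breaks down stored diglyceride. It had 72.2 and 269 FPKM in WT skin against 86.2 and 11.4 in KO skin, again with KO replicate 1 between the WT libraries. The log2 fold change was -2.09 with an SE of 1.08 (adjusted p = 0.362 in limma), and -0.69 was left without KO replicate 2. The predicted gene 4732471J01Rik overlaps an exon of Lipe on the other strand.

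Pparg (chr6:115310969-115440419, plus strand, 8 exons), the gene of the nuclear receptor PPARgamma, followed another order. Its values were 14.8 and 39.2 FPKM in WT skin against 14.7 and 33.8 in KO skin. The replicates numbered 2 were high and the replicates numbered 1 low in both genotypes, so the groups overlapped almost completely (log2 fold change -0.11 ± 0.60 SE, adjusted p = 0.932 in limma). KO replicate 2, the lowest library for the other 9 genes, had 2.30 times the Pparg value of KO replicate 1. The direction of the Pparg difference turned with the libraries used, to 0.46 without KO replicate 1 and 0.56 without WT replicate 2, and it was -0.68 without KO replicate 2.

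PPARgamma is also a factor of sebocytes, the lipid-laden cells of the sebaceous gland. The 9 sebocyte markers had a mean log2(FPKM + 1) of 2.85 and 2.49 in WT replicates 1 and 2, 4.19 in KO replicate 1 and 6.27 in KO replicate 2, and 8 of the 9 had a higher KO mean. At an unadjusted p under 0.05 with a log2 fold change above 1, 7 of the 9 were past the limit in the higher direction, against 6.16% of all tested genes, and 0 passed after adjustment. Their median log2 fold change was 2.74, or 1.70 without KO replicate 2 and 3.79 without KO replicate 1. Far2, which makes the fatty alcohols of wax esters, had 7.75 and 2.99 FPKM in WT skin against 34.6 and 267 in KO skin. The part of sebocyte RNA in the Pparg values was not tested.

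**Figure D2:**
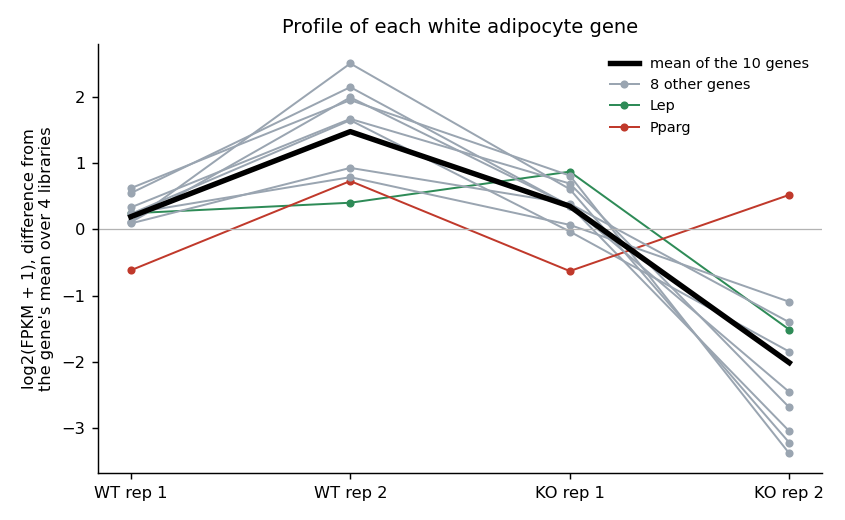
Difference of log2(FPKM + 1) from the gene's own mean over the 4 libraries (y axis) by library (x axis), with thin lines joining the values of 1 gene, Pparg and Lep in colour, and a thick black line for the mean of the 10 genes. The mean profile is highest in WT replicate 2 and lowest in KO replicate 2, Pparg is high in KO replicate 2, and Lep is highest in KO replicate 1.

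The order of levels among the genes was nearly the same in 3 libraries. Cfd, Fabp4 and Adipoq led in that order in both WT libraries and KO replicate 1, and Pparg and Lep were the lowest there. In KO replicate 2 Fabp4 led, followed by Cfd, Lpl and Pparg, and Adipoq stood behind Cd36. Neighbours such as Lpl and Lipe, or Plin4 and Cd36, changed places between libraries and did not differ beyond their spread. The distance of each gene's centred profile from the mean profile of the 10 was smallest for Plin4, 0.452 log2 units, and Lipe, 0.685, and largest for Pparg, 2.93.

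Leaving out a KO library changed what the comparison showed. Without KO replicate 2, the median of the 10 log2 fold changes was -0.58 and 0 of them were called, against 0.118% of 12702 tested genes called lower and 0.126% called higher. Without KO replicate 1, the median was -3.14 and 9 of the 10, all but Pparg, were called lower with adjusted p between 0.00195 and 0.0252 by limma, against 9.26% of 12618 tested genes called lower and 5.96% called higher. In each of these fits the lone KO library was assumed to vary as the WT pair did. On the KO side these 9 calls rest on KO replicate 2 alone. With WT replicate 2 left out the median was -1.16, and with WT replicate 1 left out it was -2.62, with 0 of the 10, and 0% of all tested genes, called in each.

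**Figure D3:**
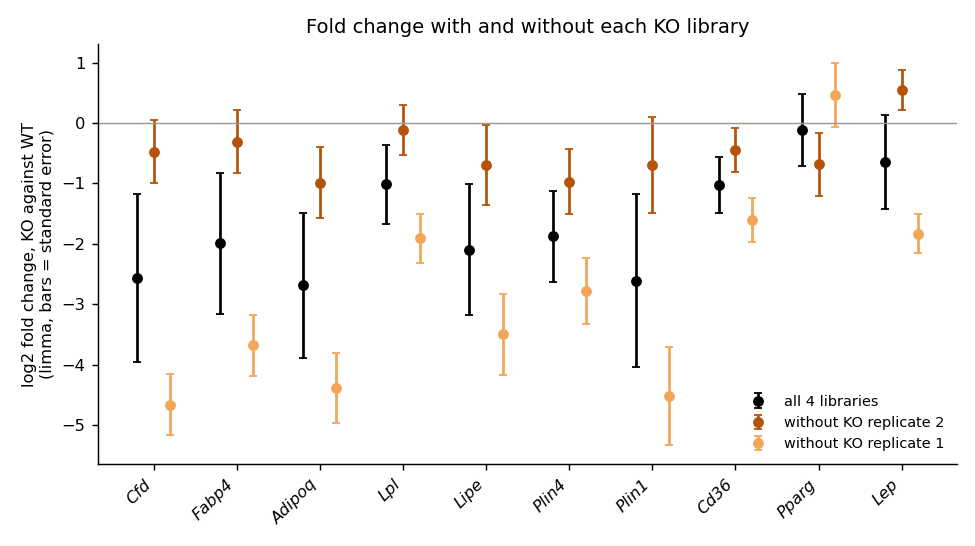
Log2 fold change of GSDMD KO against WT skin (y axis) for the 10 genes (x axis) from all 4 libraries, without KO replicate 1 and without KO replicate 2, with bars giving the standard error of limma. The values without KO replicate 1 lie lowest, with a median of -3.14, and those without KO replicate 2 lie nearest 0, with a median of -0.58.

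The next question was whether other genes of the fat cell shared the order of these 10. Of 15 tested genes of adipocyte identity other than the 10, 14 had a lower and 1 a higher KO mean, with a median log2 fold change of -1.44, and 0 were called by limma. The median was -0.21 without KO replicate 2 and -0.75 without WT replicate 2. In KO replicate 2, 13 of the 15 were lowest, and in WT replicate 2, 14 of the 15 were highest. At an unadjusted p under 0.05 with a log2 fold change below -1, 3 were past the limit, against 4.14% of all tested genes: Gpd1, glycerol-3-phosphate dehydrogenase, Thrsp, a factor of lipid synthesis, and Sncg, gamma-synuclein. Gpd1 had 207 and 391 FPKM in WT skin against 108 and 101 in KO skin, and it differed from the 10 genes in that the KO libraries were alike (log2 fold change -1.44 ± 0.36 SE, adjusted p = 0.248 in limma). Thrsp had 135 and 556 FPKM in WT skin against 84.7 and 9.98 in KO skin. Slc2a4, the insulin-responsive glucose transporter of fat and muscle, also had its KO values of 67.2 and 49.7 FPKM below its WT values of 97.8 and 109 FPKM. Cidec, which fuses lipid droplets, overlapped, with 116 and 467 FPKM in WT skin against 200.4 and 17.6 in KO skin.

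Among the secreted and receptor genes 7 of 9 tested had a lower and 2 a higher KO mean, with a median of -0.77, or -0.13 without KO replicate 2, and 0 called. Retn, which encodes resistin, a hormone of mouse fat cells, had 369 and 1090 FPKM in WT skin against 310 and 15.5 in KO skin, the same order as Adipoq (log2 fold change -3.15 ± 1.43 SE, adjusted p = 0.329 in limma). Rbp4, the retinol carrier, had 25.0 and 78.9 FPKM in WT skin against 31.2 and 2.23 in KO skin. Adipor1, a widely expressed adiponectin receptor, had overlapping values, at 93.0 and 79.2 FPKM in WT skin against 82.4 and 74.8 in KO skin. Itln1 was at or near 0 in every library and was not tested.

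Of 12 genes of lipolysis 10 had a lower and 2 a higher KO mean, with a median of -0.97, or -0.23 without KO replicate 2 and -0.30 without WT replicate 2, and 0 called. Pnpla2, the triglyceride lipase of the first step, had 127 and 418 FPKM in WT skin against 113 and 42.7 in KO skin. Mgll, monoglyceride lipase of the last step, ran the other way, with 38.9 and 93.2 FPKM in WT skin against 109 and 487 in KO skin, both KO libraries above both WT libraries (log2 fold change 1.92 ± 0.81 SE, adjusted p = 0.307 in limma). Adrb3, the beta-adrenergic receptor of fat, had 12.7 and 69.5 FPKM in WT skin against 13.1 and 1.97 in KO skin. The enzymes of a single pathway therefore did not share an order.

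The 8 tested genes of triglyceride assembly all had a lower KO mean, with a median of -0.95 and 0 called. Their median was -0.43 without KO replicate 2 and -0.29 without WT replicate 2. All 8 were highest in WT replicate 2, but only 4 were lowest in KO replicate 2. Dgat2, the final acyltransferase, had 79.1 and 202 FPKM in WT skin against 104 and 22.1 in KO skin, whereas Agpat2, an earlier acyltransferase, had 49.5 and 255 FPKM in WT skin against 52.3 and 57.8 in KO skin. Lpin1, lipin 1, was past the unadjusted limit in the lower direction, as were 4.14% of all tested genes, with 26.6 and 34.1 FPKM in WT skin and 15.8 FPKM or less in KO skin.

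Of the 11 tested adipogenic transcription factors 8 had a lower and 3 a higher KO mean, with a median of -0.33, or -0.17 without KO replicate 2, and 0 called. Cebpa, which acts with PPARgamma, had 66.2 and 127 FPKM in WT skin against 117 and 114 in KO skin, so it was not low in KO replicate 2. Cebpb, an early factor of adipogenesis, was higher in both KO libraries, 50.8 and 63.7 FPKM, than in the WT libraries, 22.0 and 40.9 FPKM. Rxra, the partner of PPARgamma, had 38.1 and 41.3 FPKM in WT skin against 45.1 and 48.8 in KO skin, so it too was higher in both KO libraries (log2 fold change 0.24 ± 0.23 SE, adjusted p = 0.581 in limma). Klf15 was lower in both KO libraries, with 10.8 and 8.00 FPKM against 13.6 and 27.4 FPKM. KO replicate 2 was the lowest library for 5 of these 11 factors, against 9 of the 10 adipocyte genes.

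Within the perilipin and fatty acid-binding protein families, the paralogs did not share 1 order. All 5 perilipins had a lower KO mean (median log2 fold change -0.95, or -0.79 without KO replicate 2 and -0.52 without WT replicate 2), as had 3 of the 5 tested fatty acid-binding proteins (median -0.41, or -0.21 without KO replicate 2 and -0.16 without WT replicate 2), and 0 were called. Plin2, the perilipin of most lipid-storing cells, had 109 and 213 FPKM in WT skin against 82.5 and 157 in KO skin, and Plin3, a widely expressed member, had 24.2 to 28.5 FPKM in all libraries. KO replicate 2 was the lowest library for Plin1, Plin3, Plin4 and Plin5, but not for Plin2. Fabp5, the epidermal fatty acid-binding protein, had 441 and 404 FPKM in WT skin against 788 and 1336 in KO skin (log2 fold change 1.28 ± 0.34 SE, adjusted p = 0.248 in limma), an order opposite to that of Fabp4 in KO replicate 2. Fabp3, the muscle member, had 166 and 274 FPKM in WT skin against 160 and 137 in KO skin.

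**Figure D4:**
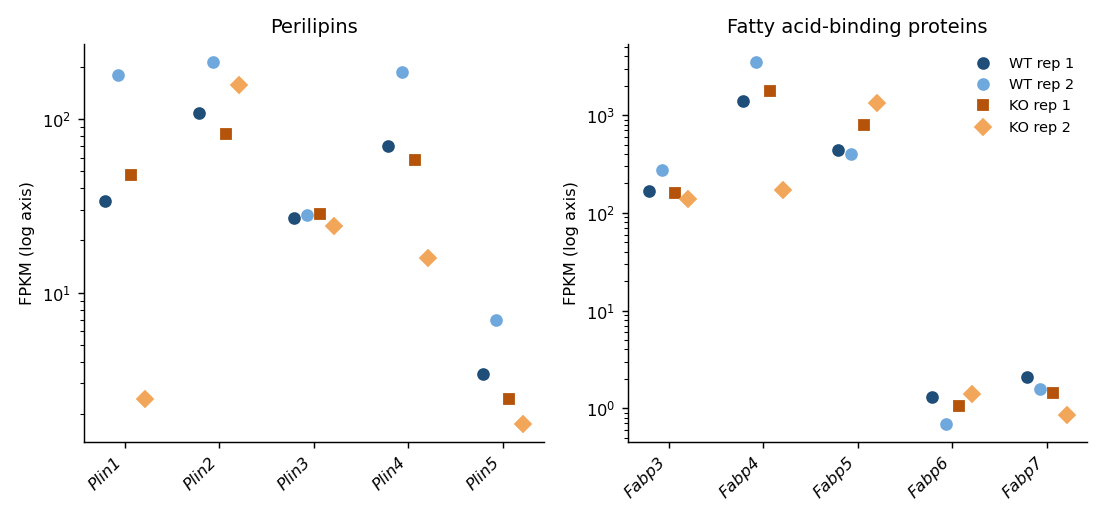
FPKM on a log axis of the tested members of the perilipin family and the fatty acid-binding protein family (x axis), 1 point per library in the 4 libraries. Plin1, Plin4 and Fabp4 have their lowest point in KO replicate 2, whereas Fabp5 has its highest there, 1336 FPKM, and Plin3 spans only 24.2 to 28.5 FPKM.

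Markers of adipocyte precursors shared the low KO replicate 2 with the mature genes, being lowest there in 7 of 8 tested, but 2 of the 8 were highest in WT replicate 2. Pi16, a marker of early precursors, had 11.2 and 3.41 FPKM in WT skin against 50.5 and 0.503 in KO skin. Of the 8, 4 had a lower and 4 a higher KO mean, with a median of -0.14, or 0.33 without KO replicate 2, and 0 called. Of 6 tested brown and beige adipocyte genes, 3 had a lower and 3 a higher KO mean, with a median of -0.05 and 0 called. The sign of this median turned, to 0.09 without KO replicate 2 and to 1.39 at a minimum of 5 FPKM. Ucp1, the uncoupling protein of brown fat, stood at 0.0376 and 0.682 FPKM in WT skin against 0.143 and 0.361 in KO skin and was not tested. Cidea and Elovl3 were past the unadjusted limit in the higher direction, against 6.16% of all tested genes, with 267 and 297 FPKM in KO replicate 2, and both are also on the sebocyte list. For the precursor, secreted and receptor, lipolysis and transcription factor lists, 0 genes were past the unadjusted limit in either direction, against 4.14% of all tested genes in the lower and 6.16% in the higher direction, shares at which lists of 8 to 12 genes would hold few or none.

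The 10 genes whose centred values lay nearest to the mean profile of the adipocyte genes, out of 2089 with a mean of at least 10 FPKM and a range of at least 1 log2 unit, were Fads3, Agt, Cp, Cdo1, C2, Wfdc21, Dgat2, Fcgrt, Serpina3c and Sod3, at Euclidean distances from 0.129 to 0.339 log2 units over 4 libraries. Only Dgat2 was on a list named here. Agt, which encodes angiotensinogen, had 14.5 and 33.8 FPKM in WT skin against 13.9 and 2.35 in KO skin. Sod3, extracellular superoxide dismutase, had 24.9 and 57.9 FPKM in WT skin against 28.0 and 3.24 in KO skin.

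The markers of other cell types were read beside these values. The 9 endothelial markers were all lowest in KO replicate 2, and their mean log2(FPKM + 1) was 3.55 and 4.13 in WT replicates 1 and 2, 3.93 in KO replicate 1 and 1.55 in KO replicate 2. The 8 fibroblast markers had 4.67 and 4.18 in WT, 5.40 in KO replicate 1 and 2.42 in KO replicate 2, where 7 of the 8 were lowest. With KO replicate 2 left out, the median log2 fold change of the endothelial markers went from -1.12 to 0.03, that of the fibroblast markers from -0.77 to 0.82 and that of the macrophage markers from -2.69 to -0.998. The median of the skeletal muscle markers then went from -0.68 to -0.51 and that of the keratinocyte markers from 1.11 to 1.52. The fibroblast median also moved with the WT libraries, to -0.16 without WT replicate 1 and -1.22 without WT replicate 2. The 9 macrophage markers had 6.12 and 6.30 in WT, 5.24 in KO replicate 1 and 2.42 in KO replicate 2, and 7 of the 9 had both KO libraries below both WT libraries, against 20.5% of all tested genes. The low values of KO replicate 2 were therefore shared by endothelial, fibroblast and macrophage markers, while the 11 skeletal muscle markers had 10.5, 10.3, 9.84 and 9.63, with KO replicate 2 the lowest library for 6 of the 11, and the 7 keratinocyte markers had 8.87, 8.19, 9.99 and 9.11 in the same order of libraries. All 11 muscle markers had a lower and all 7 keratinocyte markers a higher KO mean, and 0 genes of any marker list were called by limma, while 5 macrophage and 2 muscle markers were past the unadjusted limit in the lower direction (4.14% of all tested genes) and 4 keratinocyte markers in the higher direction (6.16%).

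Because dermal fat is known to follow the hair cycle, markers of the hair follicle were read as well. Their mean was 0.888 and 0.190 in WT replicates 1 and 2, 4.45 in KO replicate 1 and 1.21 in KO replicate 2, and all 7 tested genes had a higher KO mean, with 3 past the unadjusted limit, against 6.16% of all tested genes. Krt71, a keratin of the inner root sheath, had 2.77 and 0.0661 FPKM in WT skin against 86.4 and 1.04 in KO skin. The library with the highest hair follicle level, KO replicate 1, thus had adipocyte levels between those of the WT libraries for 5 of the 10 genes, and the library with the highest adipocyte level, WT replicate 2, had the lowest hair follicle level. Whether hair cycle stage bears on the adipocyte values was not tested.

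The mean level of the 10 genes, 6.59 and 7.88 in WT replicates 1 and 2, 6.75 in KO replicate 1 and 4.39 in KO replicate 2, could be set against each list. It exceeded the endothelial mean by 3.04, 3.74, 2.82 and 2.84, so in KO replicate 2 the adipocyte genes were about as far above the endothelial markers as in KO replicate 1, with the reservation that many endothelial values there were near 1 FPKM or below, where the log2(FPKM + 1) scale is compressed. Against muscle the difference was -3.88, -2.45, -3.08 and -5.24, and against keratinocytes -2.28, -0.31, -3.24 and -4.72, so against these lists the adipocyte genes were lowest in KO replicate 2. Against fibroblasts it was 1.92, 3.70, 1.36 and 1.97, with KO replicate 2 above KO replicate 1 and WT replicate 1, and against macrophages it was 0.48, 1.58, 1.51 and 1.97, with KO replicate 2 the highest. The same reservation holds here, since macrophage markers such as Adgre1 (0.838 FPKM) and Itgam (0.550 FPKM) and the fibroblast marker Pdgfra (0.323 FPKM) were under 1 FPKM in KO replicate 2. In WT replicate 2, the level of the adipocyte genes was above WT replicate 1 by more than that of any of the cell type lists, and the fibroblast, muscle, keratinocyte, hair follicle and sebocyte lists were lower there. What part the makeup of each biopsy had in these values was not tested. The median log2 fold change of the 10 genes less that of the endothelial, fibroblast, muscle or keratinocyte markers was -0.81, -1.17, -1.26 and -3.05, and less that of the macrophage markers it was 0.75, so the macrophage markers had the larger median difference between the genotypes. These values are descriptions chosen after the data had been seen.

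**Figure D5:**
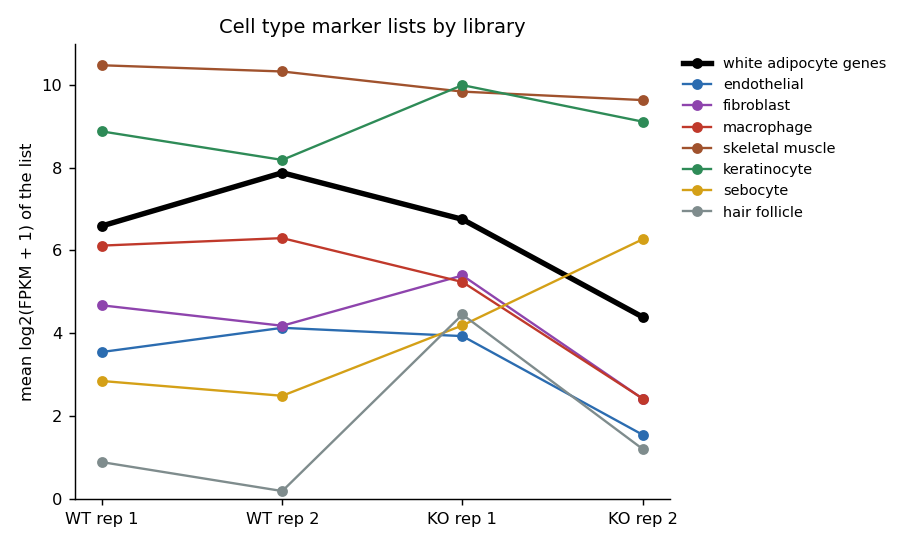
Mean log2(FPKM + 1) of the 10 adipocyte genes and of the marker lists of other cell types (y axis) by library (x axis), with lines joining the values of 1 list. The adipocyte, endothelial, fibroblast, macrophage and skeletal muscle lists are lowest in KO replicate 2, at 4.39, 1.55, 2.42, 2.42 and 9.63, and the sebocyte list is highest there, at 6.27.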

How the data were processed

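RNA from 2 WT and 2 GSDMD KO skin samples, grouped by their labels, was measured by paired-end RNA-seq. The submitters' processing notes name HISAT2 2.0.1, StringTie 2.0.6 and the build mm9. The study's methods describe read counts per gene and DESeq2, but the deposited table holds FPKM that the authors had already divided by length and depth (99.993% of values above 0 are not whole), so a count model could not be used. Which program made the FPKM is not given in the sources used here. The estimated depth was 12700000 to 17500000 fragments per library.

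Values were transformed to log2(FPKM + 1), which understates the change of low genes. Genes had to reach 1 FPKM in 2 or more libraries, which left 13027, and were fitted in limma 3.58.1 in R 4.3.3, with genotype as the term, a mean-variance trend and Benjamini-Hochberg adjustment over all of them. Calls needed an adjusted p under 0.05 together with a log2 fold change beyond 1 in size. The fit was tested on simulated data. Tables were made with Python 3.11.15 and pandas 2.3.3. Gene coordinates are those of mm9, counted from 1, and the promoter windows are placed on GRCm38.p6.

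The 10 genes, 16 further lists (9 of fat cell genes and families and 7 of markers of other cell types) and the rules were chosen with earlier results of these data known. Named genes are the 10, Gsdmd, genes of the lists where discussed, and the 10 genes with the nearest profile. Apart from their replicate numbers, the labels do not say how the samples of a group relate, so p-values measure only the spread between these samples, which may be technical. Alternatives were other pseudocounts, filters and scalings, no trend, the replicate number as a block and leaving out each library.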

Additional observations from a re-analysis of the deposited data

How the results depend on the processing

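Depth limits Lep and Plin1 in KO replicate 2 most, and FPKM allow no count model. Across other pseudocounts, filters, scalings and the fit without a trend, 0 of the 10 genes were called by limma and every tested one kept a lower KO mean; Lep was not tested at a minimum of 5 FPKM. Most shifts came with single libraries, but the filter also moved the medians of small lists: at a minimum of 5 FPKM to -0.13 for transcription factors and -0.35 for precursors, and with no filter to -0.08 for fatty acid-binding proteins. Leaving out 1 library gave 0 to 1920 genes called and 0 to 9 of the 10 adipocyte genes called: 1920 and 9 without KO replicate 1, 31 and 0 without KO replicate 2. The median of the 10 ranged from -3.14 to -0.58. Lep ranged from -1.83 without KO replicate 1 to a reversed 0.55 without KO replicate 2, and Pparg from -0.78 without WT replicate 1 to 0.56 without WT replicate 2, with 0.46 without KO replicate 1. Without KO replicate 1 the list medians were -1.58 for secreted and receptor, -1.87 for lipolysis, -4.42 for macrophage, -2.55 for fibroblast and 0.41 for hair follicle genes. Without KO replicate 2 they were -0.13, -0.23, -0.998, 0.82 and 5.36 in the same order. For the other adipocyte identity genes the median was -0.21 without KO replicate 2 and -0.75 without WT replicate 2. The median of the 10 less that of the macrophage markers, added after the data had been seen, was 0.75. The brown and beige list had 1.39 at a minimum of 5 FPKM, and the unadjusted threshold gave 1341 genes. The cause of these shifts was not tested beyond the construction of each alternative.

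Same-numbered libraries tended weakly to deviate in opposite directions (correlation -0.20 over 13027 genes). This value cannot decide whether the numbers pair the samples, because each genotype gives only the difference between its own libraries. With the replicate number as a block, 0 genes were called, and 4 of the 10 adipocyte genes were past the unadjusted limit in place of 0, against 5.27% of all tested genes in the lower direction. A crossed pairing, WT replicate 1 with KO replicate 2 and WT replicate 2 with KO replicate 1, was chosen after the data had been seen. With it, 0 genes were called and 8 of the 10 were past the unadjusted limit, against 5.23% of all tested genes in the lower direction. The labels do not give this pairing, and it was picked with the values known, so no conclusion is drawn from that count.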
